A study of Mus musculus with 6 samples.

Results

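The 48 genes described here encode the machinery that carries a cell through mitosis: the kinases and cyclins of mitotic entry, the spindle checkpoint, the kinetochore, the spindle motors, condensin and the cytokinesis apparatus. They were taken by gene symbol from a list of mitotic genes, and all 48 were found among the 20475 genes of the table. All 48 passed the filter on low values, under which 15025 genes were tested. The measurements are RNA-seq read values in NIH3T3, a mouse embryonic fibroblast line, at passage 5 per the labels. Cells received extracellular vesicles (EVs), the membrane-enclosed particles that cells release, suspended in phosphate-buffered saline (PBS), or PBS without EVs, and RNA was taken after 48 h. There were 2 libraries with EVs of MDA-MB-231, a line from a triple-negative breast carcinoma of human origin, 2 with EVs of MCF10A, human mammary epithelial cells that do not form tumours, and 2 with PBS. All groups shared the same growth medium with fetal bovine serum, and the labels give 1 EV number per recipient cell number for both EV sources. Whether replicates came from separate cultures is not stated, so the p-values reflect only the spread among these 6 libraries, which may be technical.

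Mitotic genes are transcribed in a wave that peaks in the G2 and M phases and falls as cells leave mitosis. CDK1 with its cyclins drives entry, kinetochores tether chromosomes to spindle microtubules, and the spindle checkpoint holds back the anaphase-promoting complex until every chromosome is attached. Separase then cuts cohesin, kinesins and midzone proteins part the chromosomes, and the RhoA pathway closes the cleavage furrow. In resting fibroblasts the DREAM repressor complex keeps such genes off, and in cycling cells the same promoter elements serve B-MYB and FOXM1. In bulk RNA, a larger share of cells in G2 and M and more transcript per such cell cannot be told apart.

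The promoters of these genes are known for paired CCAAT boxes, bound by NF-Y, followed by a cell cycle homology region (CHR) near the transcription start. Both elements were searched in RefSeq windows of 300 bases, from 250 before to 50 after the gene start, on the GRCm38.p6 assembly. The letters searched were CCAAT and its reverse complement ATTGG, and TTTGAA with its reverse complement TTCAAA and TTCGAA, which is its own reverse complement. Of the 48 genes, 41 matched a window, with 44 windows in all since Bub3, Prc1 and Ect2 had more than 1, and Ccna2, Cdc25c, Aurkb, Incenp, Kif20a, Tpx2 and Smc4 were not matched. A CCAAT box was found in 33 of the 44 windows (75.0%), against 38.13% of the 14225 windows of genes tested and 37.41% of all 32851 windows. A CHR core was found in 36 windows (81.82%), against 14.54% of windows of genes tested and 19.23% of all windows. Both elements were present in 31 windows (70.45%), against 6.12% and 7.52%. At least 2 CCAAT boxes stood in 21 of the 44 windows (47.73%), against 13.44% of windows of genes tested. Of 50 CHR matches, 34 began no more than 50 bases before the start or after it, and 1 CCAAT match shared a base with a CHR match. The windows of Mad2l1, Pttg1, Nuf2, Birc5, Nusap1 and Ncaph held neither set of letters. A match is a description of the letters and shows no binding.

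The windows below run from 100 bases before to 30 after the RefSeq gene start, 5′ to 3′ on the gene's strand, with CCAAT box and CHR core letters in capitals. Cdk1, Ccnb2, Cdc20, Espl1, Kif18b and Racgap1 are shown because they pair both elements and stand for the entry, checkpoint, motor and cytokinesis roles. Cenpa is shown because it pairs both elements but did not pass the test in any comparison, and Pttg1 because it carries neither and moved little.
Cdk1 (chr10:69352883-69353012, minus strand): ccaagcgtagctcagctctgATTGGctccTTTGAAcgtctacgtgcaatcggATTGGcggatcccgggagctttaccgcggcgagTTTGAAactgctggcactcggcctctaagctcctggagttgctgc
Ccnb2 (chr9:70421525-70421654, minus strand): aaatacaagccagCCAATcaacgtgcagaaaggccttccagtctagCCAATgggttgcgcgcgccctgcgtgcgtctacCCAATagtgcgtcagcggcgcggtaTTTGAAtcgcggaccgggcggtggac
Cdc20 (chr4:118437314-118437443, minus strand): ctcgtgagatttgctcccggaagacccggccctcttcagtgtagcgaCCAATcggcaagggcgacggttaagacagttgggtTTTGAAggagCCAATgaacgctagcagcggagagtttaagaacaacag
Espl1 (chr15:102296193-102296322, plus strand): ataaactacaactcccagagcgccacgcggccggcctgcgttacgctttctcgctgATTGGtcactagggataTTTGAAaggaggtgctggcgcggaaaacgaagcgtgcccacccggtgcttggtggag
Kif18b (chr11:102925095-102925224, minus strand): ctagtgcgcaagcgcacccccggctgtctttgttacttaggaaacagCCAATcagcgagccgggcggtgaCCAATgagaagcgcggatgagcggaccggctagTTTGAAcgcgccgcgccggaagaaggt
Racgap1 (chr15:99651627-99651756, minus strand): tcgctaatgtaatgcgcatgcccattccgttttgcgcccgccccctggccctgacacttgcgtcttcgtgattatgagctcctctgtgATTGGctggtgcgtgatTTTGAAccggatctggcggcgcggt
Cenpa (chr5:30666786-30666915, plus strand): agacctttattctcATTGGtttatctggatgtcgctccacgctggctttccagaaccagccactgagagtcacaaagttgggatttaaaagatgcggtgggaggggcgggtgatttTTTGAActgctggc
Pttg1 (chr11:43425952-43426081, minus strand): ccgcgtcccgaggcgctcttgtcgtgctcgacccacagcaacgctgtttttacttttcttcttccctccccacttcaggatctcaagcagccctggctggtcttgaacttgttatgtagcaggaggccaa
Whether these letters go with the size of the response was not tested, and the following genes are picked examples. The window of Espl1, which had the largest log2 fold change with MDA-MB-231 EVs, holds 1 CCAAT box and 1 CHR core. The window of Ccnb2, which did not pass the test with MCF10A EVs, holds 3 CCAAT boxes and 1 CHR core here, and that of Mad2l1, with one of the larger log2 fold changes (0.56 and 0.38), holds neither.

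**Figure D1:**
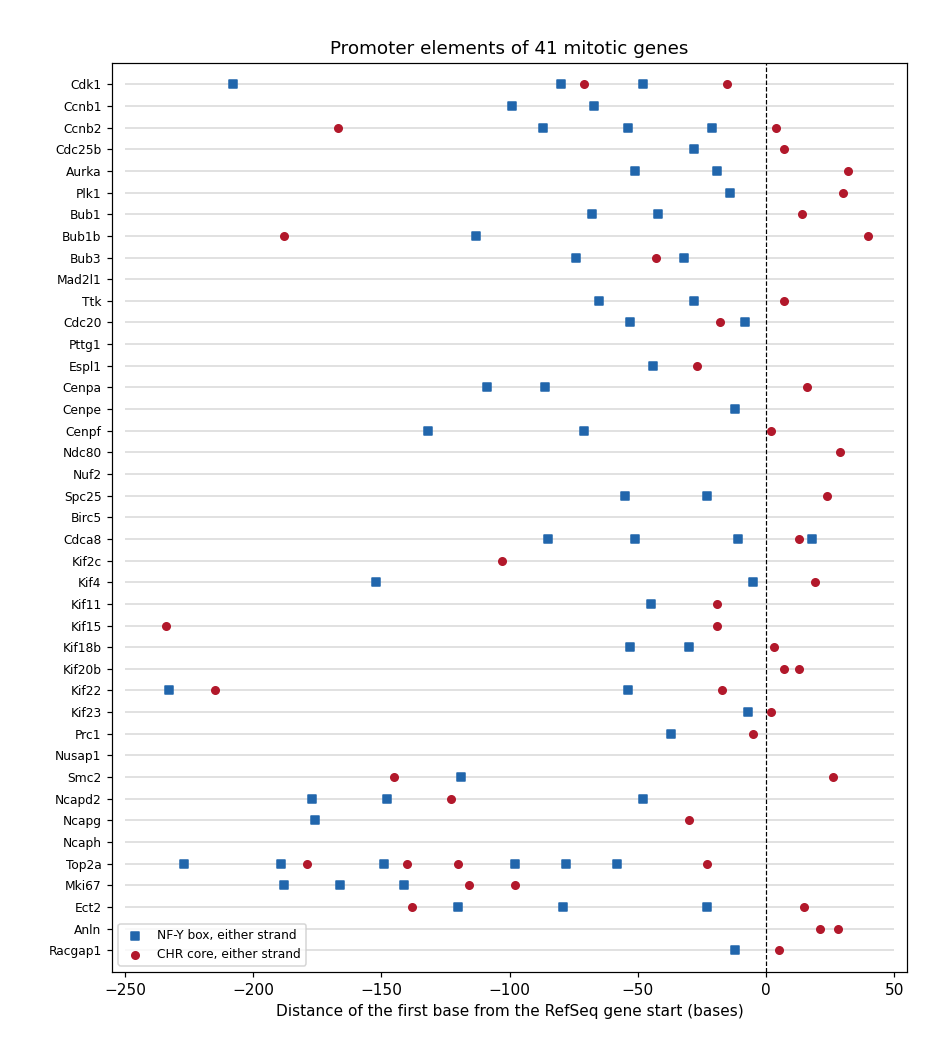
Positions of CCAAT boxes (labelled NF-Y box, squares) and CHR cores (circles) in the promoter windows of 41 mitotic genes, 1 window per gene, with the distance in bases of each match's first base from the RefSeq gene start (dashed line) on the horizontal axis. Most CHR cores lie within 50 bases of the start, and 6 genes carry neither element.

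The libraries held 22451173 to 29315530 gene reads, and a count of 0 allows up to 0.102 to 0.134 counts per mega-read, a limit for counting error only. The deposited values are reads adjusted by the authors to a common library size, called normalised reads here and not divided by gene length. Of 10 fibroblast markers, 9 were abundant and Fap stayed under 10 normalised reads, with a summed level of 369822 to 377859 with MDA-MB-231 EVs, 373272 to 383317 with MCF10A EVs and 428838 to 429544 with PBS. Of 10 epithelial markers 9 stayed under 10, with a summed level of 31.5 to 50.5 in the 6 libraries, and Epcam, Krt18, Krt5 and Esrp1 had no read. Of 8 macrophage and leukocyte markers 5 stayed under 10, Emr1 and Cd3e had no read, and the summed level, nearly all Cd14, was 993 to 1059 with MDA-MB-231 EVs, 1780.3 to 1833 with MCF10A EVs and 3036 to 3142 with PBS. Of 8 endothelial markers 7 stayed under 10, with sums, nearly all Cdh5, of 158 to 194 with MDA-MB-231 EVs, 296 to 345 with MCF10A EVs and 356 to 364 with PBS, and Emcn had no read. The part of these markers in the mitotic results was not tested.

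Mitotic genes rose with both kinds of EV and more so with those of MDA-MB-231. With MDA-MB-231 EVs 46 of the 48 genes rose against PBS and 0 fell (limma, Benjamini-Hochberg adjusted p under 0.05 over all genes tested), with a median log2 fold change of 0.43, or 1.35-fold. Of all genes tested 17.9% were called higher and 16.9% lower in that comparison, and their median log2 fold change was 0.010. With MCF10A EVs 44 of the 48 rose against PBS and 0 fell, with a median log2 fold change of 0.29, or 1.22-fold, while 17.1% of all genes were called higher and 14.6% lower. Both comparisons use the same PBS libraries. In summed normalised reads the 48 genes reached 177613 and 176791 with MDA-MB-231 EVs, 159645 and 162314 with MCF10A EVs, and 133130 and 135435 with PBS. That was 0.730% and 0.739% of all reads with MDA-MB-231 EVs, 0.642% and 0.653% with MCF10A EVs, and 0.527% and 0.537% with PBS. The groups did not overlap in this sum, and Mki67, Top2a and Anln were its largest single terms.

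In all 48 genes both MDA-MB-231 EV libraries lay above both PBS libraries, which held for 34.3% of all genes tested, and in 44 genes both MCF10A EV libraries did so, against 33.0%. In 0 of the 48 did both libraries of an EV group lie below both PBS libraries, against 31.6% of all genes with MDA-MB-231 EVs and 31.1% with MCF10A EVs. In 37 genes all 6 libraries stood in the order MDA-MB-231 EVs, MCF10A EVs, PBS from high to low without overlap. The share of all genes tested in that order was not worked out. It is at most 27.2%, the share with both MDA-MB-231 EV libraries above both MCF10A EV libraries. The 11 exceptions among the 48 genes were of 3 kinds. In Cdk1, Ccnb1, Aurka and Cdca8 the EV groups overlapped. In Bub3, Spc25 and Kif4 the MCF10A EV libraries were the highest, and in Ccnb2, Cdc25b, Pttg1 and Cenpa the MCF10A EV libraries overlapped those with PBS.

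**Figure D2:**
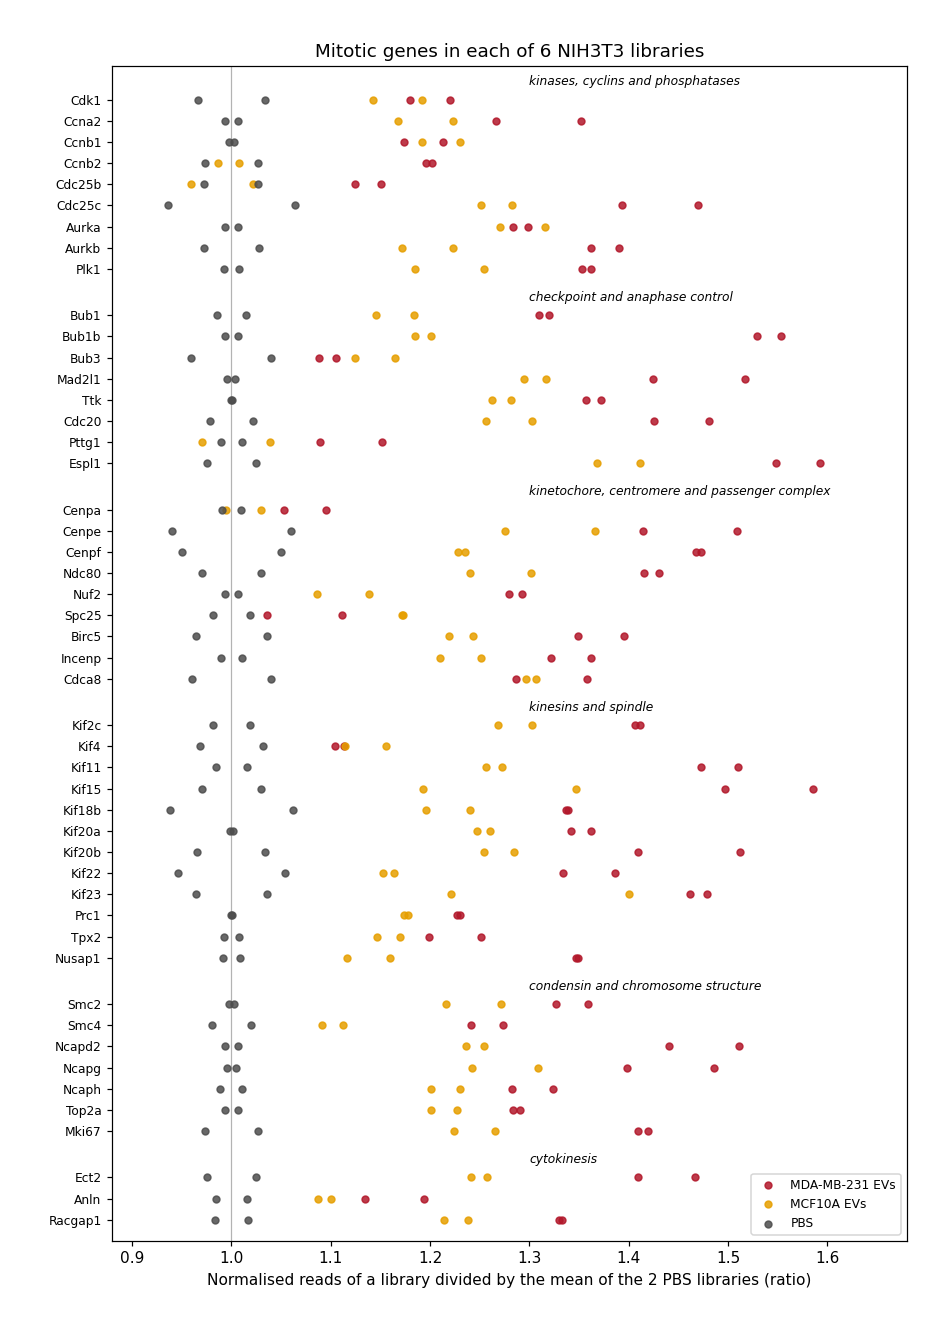
Normalised reads of each of the 6 libraries divided by the mean of the 2 PBS libraries (horizontal axis, ratio), for the 48 mitotic genes grouped by role, with red points for MDA-MB-231 EVs, orange for MCF10A EVs and grey for PBS. In each gene both red points lie right of both grey points. In 37 genes the 3 groups stand apart in the order MDA-MB-231 EVs, MCF10A EVs, PBS. That order can hold for at most 27.2% of all genes tested, the share with MDA-MB-231 EVs above MCF10A EVs without overlap.

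The kinases, cyclins and phosphatases of mitotic entry rose with EVs, all 9 with MDA-MB-231 EVs and 7 with MCF10A EVs. That compares with 17.9% and 17.1% of all genes tested. Median log2 fold changes of the 9 were 0.37 and 0.26. Ccnb2 and Cdc25b rose with MDA-MB-231 EVs and did not pass the test with MCF10A EVs. Cdk1 (chromosome 10), the kinase that drives entry into mitosis, had 4146 and 4009.8 normalised reads with MDA-MB-231 EVs, 3883 and 4049.7 with MCF10A EVs, and 3284 and 3511 with PBS. Ccnb1 (chromosome 13), the cyclin B1 that activates CDK1, had 3006 and 2909 normalised reads with MDA-MB-231 EVs, 3049 and 2954 with MCF10A EVs, and 2485 and 2471 with PBS. Aurka (chromosome 2), a kinase of centrosomes and spindle poles, had 1852 and 1873 normalised reads with MDA-MB-231 EVs, 1833 and 1897 with MCF10A EVs, and 1452 and 1433 with PBS. In these 3 genes the EV groups overlapped, and both stood clear of PBS: Aurka rose 1.29-fold with MDA-MB-231 EVs and 1.29-fold with MCF10A EVs (limma adjusted p = 2.85e-06 and 5.30e-06). Ccna2 (chromosome 3), the cyclin A2 of S and G2 phase, had 5834 and 5464 normalised reads with MDA-MB-231 EVs, 5278 and 5035 with MCF10A EVs, and 4285 and 4342 with PBS. Aurkb (chromosome 11), the kinase of the chromosomal passenger complex, had 2079 and 2037 normalised reads with MDA-MB-231 EVs, 1752 and 1829.5 with MCF10A EVs, and 1454 and 1538 with PBS. Plk1 (chromosome 7), a kinase of centrosome maturation and spindle assembly, had 2467 and 2451 normalised reads with MDA-MB-231 EVs, 2147 and 2271 with MCF10A EVs, and 1797 and 1825 with PBS. Each of these 3 was highest with MDA-MB-231 EVs and intermediate with MCF10A EVs, without overlap. Cdc25c (chromosome 18), a phosphatase that activates CDK1 at mitotic entry, had 635 and 669.9 normalised reads with MDA-MB-231 EVs, 584 and 570.0 with MCF10A EVs, and 427 and 485 with PBS. It had the largest log2 fold change of this group with MDA-MB-231 EVs, 0.52 (95% interval 0.37 to 0.67), and 0.34 (0.19 to 0.50) with MCF10A EVs. Per kilobase of transcript it was the least abundant of the 9 with PBS.

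Ccnb2 and Cdc25b behaved otherwise. Ccnb2 (chromosome 9), the cyclin B2 that also partners CDK1, had 1189 and 1195 normalised reads with MDA-MB-231 EVs, 1002 and 981 with MCF10A EVs, and 1021 and 967 with PBS. Cdc25b (chromosome 2), the phosphatase that starts CDK1 activation at the centrosome, had 2851 and 2785 normalised reads with MDA-MB-231 EVs, 2378 and 2531 with MCF10A EVs, and 2545 and 2411 with PBS. In both genes the MDA-MB-231 EV libraries stood above all others, and the MCF10A EV libraries overlapped those with PBS. Ccnb2 rose 1.20-fold with MDA-MB-231 EVs (limma adjusted p = 0.00052) and had a log2 fold change of -0.0034 with MCF10A EVs (95% interval -0.11 to 0.10, adjusted p = 0.975). Cdc25b rose 1.14-fold with MDA-MB-231 EVs (limma adjusted p = 0.00208, 0.0842 without a variance trend) and had a log2 fold change of -0.014 with MCF10A EVs (95% interval -0.10 to 0.073). The test between the EV groups called both genes higher with MDA-MB-231 EVs, at adjusted p = 0.00135 for Ccnb2 and 0.00318 for Cdc25b. The upper ends of both intervals with MCF10A EVs lay below the median log2 fold change of the 48 genes in that comparison, 0.29.

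Genes of the spindle checkpoint and of anaphase control rose in 8 of 8 cases with MDA-MB-231 EVs and in 7 of 8 with MCF10A EVs. That compares with 17.9% and 17.1% of all genes tested. Median log2 fold changes of the 8 were 0.49 and 0.30. Espl1 (chromosome 15), which encodes separase, the protease that cuts cohesin at anaphase, had 2226 and 2291 normalised reads with MDA-MB-231 EVs, 1968 and 2030.0 with MCF10A EVs, and 1403 and 1474 with PBS. Bub1b (chromosome 2), which encodes the checkpoint protein BubR1, had 3318 and 3369 normalised reads with MDA-MB-231 EVs, 2605 and 2572 with MCF10A EVs, and 2185 and 2155 with PBS. Mad2l1 (chromosome 6), which encodes the checkpoint protein MAD2 that holds CDC20, had 1781 and 1673 normalised reads with MDA-MB-231 EVs, 1546 and 1519.9 with MCF10A EVs, and 1169.6 and 1179 with PBS. In each of the 3 the groups stood apart in the order MDA-MB-231 EVs, MCF10A EVs, PBS. Espl1 had the largest log2 fold change of the 48 genes in both comparisons with PBS, 0.65 with MDA-MB-231 EVs (95% interval 0.56 to 0.74, limma adjusted p = 1.18e-08) and 0.47 with MCF10A EVs (0.39 to 0.56, adjusted p = 7.21e-07). Bub1b rose 1.54-fold with MDA-MB-231 EVs and 1.19-fold with MCF10A EVs.

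Cdc20 (chromosome 4), the activator of the anaphase-promoting complex and target of the checkpoint, had 1995 and 2072 normalised reads with MDA-MB-231 EVs, 1824 and 1758 with MCF10A EVs, and 1430.5 and 1369 with PBS. Bub1 (chromosome 2), a checkpoint kinase of the kinetochore, had 2446 and 2465 normalised reads with MDA-MB-231 EVs, 2139.9 and 2212 with MCF10A EVs, and 1841 and 1894 with PBS. Ttk, which encodes the checkpoint kinase MPS1, rose 1.36-fold with MDA-MB-231 EVs and 1.27-fold with MCF10A EVs. These 3 also followed the order MDA-MB-231 EVs, MCF10A EVs, PBS in every library. The other two of the 8 moved least. Bub3 (chromosome 7), the partner that brings BUB1 and BubR1 to kinetochores, had 2323 and 2286 normalised reads with MDA-MB-231 EVs, 2447 and 2362 with MCF10A EVs, and 2185 and 2016 with PBS. Pttg1 (chromosome 11), which encodes securin, the inhibitor of separase, had 1043 and 986 normalised reads with MDA-MB-231 EVs, 940.5 and 879 with MCF10A EVs, and 915 and 896 with PBS. Bub3 was highest with MCF10A EVs, and Pttg1 with MCF10A EVs overlapped PBS. Bub3 rose 1.10-fold with MDA-MB-231 EVs and 1.15-fold with MCF10A EVs (limma adjusted p = 0.0217 and 0.00232), and Pttg1 rose 1.12-fold with MDA-MB-231 EVs (adjusted p = 0.0274). Separase, at 1.57-fold, and its inhibitor, at 1.12-fold, thus lay near opposite ends of the range with MDA-MB-231 EVs; the difference between these 2 genes was not tested. The calls of Bub3 and Pttg1 were lost in some alternatives: with DESeq2 the adjusted p with MDA-MB-231 EVs was 0.101 for Bub3 and 0.164 for Pttg1, and without PBS replicate 2 the log2 fold change of Bub3 was 0.0765 with MDA-MB-231 EVs and 0.14 with MCF10A EVs, neither called.

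Among 9 genes of the kinetochore, the centromere and the passenger complex, 7 rose with MDA-MB-231 EVs and 8 with MCF10A EVs. That compares with 17.9% and 17.1% of all genes tested. Median log2 fold changes of the 9 were 0.42 and 0.30. Cenpf (chromosome 1), a large protein of the outer kinetochore, had 4997 and 4980.0 normalised reads with MDA-MB-231 EVs, 4167 and 4191 with MCF10A EVs, and 3223 and 3563 with PBS. Cenpe (chromosome 3), a kinetochore kinesin that moves chromosomes to the spindle equator, had 3537 and 3772 normalised reads with MDA-MB-231 EVs, 3188 and 3414 with MCF10A EVs, and 2351 and 2649 with PBS. Birc5 (chromosome 11), which encodes survivin of the passenger complex, had 2296 and 2219 normalised reads with MDA-MB-231 EVs, 2006 and 2045 with MCF10A EVs, and 1587 and 1704 with PBS. All 3 stood highest with MDA-MB-231 EVs and lowest with PBS, and Cenpf rose 1.47-fold with MDA-MB-231 EVs and 1.23-fold with MCF10A EVs (limma adjusted p = 5.44e-08 and 4.13e-05). Incenp (chromosome 19), the scaffold of the passenger complex, had 3652 and 3544 normalised reads with MDA-MB-231 EVs, 3243 and 3354 with MCF10A EVs, and 2711 and 2652 with PBS. Cdca8, which encodes borealin of the same complex, rose 1.32-fold with MDA-MB-231 EVs and 1.30-fold with MCF10A EVs, and its EV libraries overlapped. With Aurkb, described above, all 4 passenger complex genes rose with both EVs.

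Of the NDC80 complex, which binds microtubules at the kinetochore, 3 of the subunits are among the 48 genes. Ndc80 (chromosome 17) had 1447 and 1431 normalised reads with MDA-MB-231 EVs, 1255 and 1317 with MCF10A EVs, and 1042 and 981 with PBS. Nuf2 (chromosome 1), its coiled-coil partner, had 2499 and 2473 normalised reads with MDA-MB-231 EVs, 2099 and 2200.2 with MCF10A EVs, and 1946 and 1921 with PBS. Spc25 (chromosome 2), of the chromosome-facing end of the complex, had 854 and 916 normalised reads with MDA-MB-231 EVs, 967 and 966 with MCF10A EVs, and 840.0 and 809 with PBS. Ndc80 and Nuf2 were highest with MDA-MB-231 EVs, whereas Spc25 was highest with MCF10A EVs. Spc25 rose 1.17-fold with MCF10A EVs (limma adjusted p = 0.00397) and did not pass the test with MDA-MB-231 EVs (log2 fold change 0.10, 95% interval -0.013 to 0.22, adjusted p = 0.164). Over MCF10A EVs, the log2 fold change of MDA-MB-231 EVs was -0.13 (adjusted p = 0.126), which was not called. Spc24, the partner of SPC25 in the same complex and not among the 48, rose 1.44-fold with MDA-MB-231 EVs and 1.32-fold with MCF10A EVs (limma adjusted p = 0.000152 and 0.00186). Differences between subunits were not tested. Cenpa (chromosome 5), the histone H3 variant that marks centromeres, had 1678 and 1745 normalised reads with MDA-MB-231 EVs, 1640.2 and 1585 with MCF10A EVs, and 1609 and 1578 with PBS. It was the 1 gene of the 48 that passed neither comparison with PBS, with log2 fold changes of 0.10 (95% interval 0.014 to 0.19, limma adjusted p = 0.0682) with MDA-MB-231 EVs and 0.017 (-0.071 to 0.11, adjusted p = 0.805) with MCF10A EVs. With edgeR on library totals all 48 genes, Cenpa and Spc25 included, were called higher with MDA-MB-231 EVs. In that setting 68.0% of all calls were higher. Nuf2 rose with MCF10A EVs at adjusted p = 0.00582, and DESeq2 gave 0.0508.

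All 12 kinesin and spindle genes rose with both EVs, against 17.9% of all genes tested with MDA-MB-231 EVs and 17.1% with MCF10A EVs. Median log2 fold changes of the 12 were 0.44 with MDA-MB-231 EVs and 0.31 with MCF10A EVs. Kif15 (chromosome 9), a motor that helps to keep spindle poles apart, had 1798 and 1905 normalised reads with MDA-MB-231 EVs, 1433 and 1618 with MCF10A EVs, and 1166 and 1237 with PBS. Kif11 (chromosome 19), the motor that makes the spindle bipolar, had 4399 and 4509.5 normalised reads with MDA-MB-231 EVs, 3751 and 3799 with MCF10A EVs, and 2941 and 3032 with PBS. Kif23 (chromosome 9), the motor of centralspindlin at the spindle midzone, had 1626 and 1645 normalised reads with MDA-MB-231 EVs, 1358 and 1558 with MCF10A EVs, and 1073 and 1152 with PBS. The groups stood apart in all 3, and Kif11 rose 1.49-fold with MDA-MB-231 EVs and 1.26-fold with MCF10A EVs (limma adjusted p = 3.97e-09 and 2.11e-06). Kif20a (chromosome 18), a midzone motor that brings the passenger complex there, had 4076 and 4138 normalised reads with MDA-MB-231 EVs, 3787 and 3828 with MCF10A EVs, and 3042 and 3033 with PBS. Kif20b (chromosome 19), a related motor of cytokinesis, had 3643 and 3907 normalised reads with MDA-MB-231 EVs, 3319 and 3242 with MCF10A EVs, and 2496 and 2672 with PBS. Kif22 (chromosome 7), a chromosome-arm motor that pushes chromosomes to the spindle equator, had 1489 and 1548 normalised reads with MDA-MB-231 EVs, 1287 and 1299.5 with MCF10A EVs, and 1177 and 1056 with PBS. Each was again highest with MDA-MB-231 EVs. Kif2c (chromosome 4), a kinesin that takes microtubules apart, had 1786 and 1792 normalised reads with MDA-MB-231 EVs, 1610.0 and 1654 with MCF10A EVs, and 1294 and 1246 with PBS. Nusap1 (chromosome 2), a microtubule bundler near chromosomes, had 2247 and 2243 normalised reads with MDA-MB-231 EVs, 1859.5 and 1933 with MCF10A EVs, and 1652 and 1680.1 with PBS.

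Of the remaining 4 spindle genes, Kif18b, a kinesin at microtubule plus ends, rose 1.34-fold with MDA-MB-231 EVs and 1.22-fold with MCF10A EVs. Prc1, which bundles the antiparallel microtubules of the midzone, rose 1.23-fold with MDA-MB-231 EVs and 1.18-fold with MCF10A EVs. Tpx2, the activator of Aurora A on the spindle, rose 1.22-fold and 1.16-fold in the same comparisons. Kif4, a chromokinesin that works with PRC1, moved least, with 3109.9 and 3084 normalised reads with MDA-MB-231 EVs, 3227 and 3111 with MCF10A EVs, and 2705 and 2881 with PBS. Its libraries were highest with MCF10A EVs, and it rose 1.11-fold with MDA-MB-231 EVs and 1.14-fold with MCF10A EVs (limma adjusted p = 0.00564 and 0.00165). Without PBS replicate 1 the adjusted p of Kif4 with MDA-MB-231 EVs was 0.102, and without PBS replicate 2 that of Kif22 with MCF10A EVs was 0.0954.

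Condensin and chromosome structure genes rose in 7 of 7 cases with both EVs, against 17.9% of all genes tested with MDA-MB-231 EVs and 17.1% with MCF10A EVs. Median log2 fold changes of the 7 were 0.43 with MDA-MB-231 EVs and 0.31 with MCF10A EVs. Mki67 (chromosome 7), the coat protein of mitotic chromosomes used to mark proliferating cells, had 22457 and 22292 normalised reads with MDA-MB-231 EVs, 19361 and 20009 with MCF10A EVs, and 15399.6 and 16237 with PBS. Top2a (chromosome 11), the topoisomerase that untangles sister chromatids, had 16263 and 16169 normalised reads with MDA-MB-231 EVs, 15139 and 15468 with MCF10A EVs, and 12682 and 12521 with PBS. Ncapd2 (chromosome 6), a subunit of condensin I, had 2857 and 2996 normalised reads with MDA-MB-231 EVs, 2451 and 2486 with MCF10A EVs, and 1996 and 1970.2 with PBS. These 3 stood apart by group in the order MDA-MB-231 EVs, MCF10A EVs, PBS, and Ncapd2 rose 1.48-fold with MDA-MB-231 EVs, the most of the group there, and 1.24-fold with MCF10A EVs (limma adjusted p = 1.89e-08 and 1.20e-05). Smc2 (chromosome 4), an ATPase of both condensins, had 4802 and 4919.8 normalised reads with MDA-MB-231 EVs, 4401 and 4602 with MCF10A EVs, and 3630.0 and 3609 with PBS. Smc4 (chromosome 3), its ATPase partner, had 6722 and 6549 normalised reads with MDA-MB-231 EVs, 5759.7 and 5870.0 with MCF10A EVs, and 5175 and 5379 with PBS. Ncapg (chromosome 5), a further condensin I subunit, had 2659 and 2503 normalised reads with MDA-MB-231 EVs, 2223 and 2343 with MCF10A EVs, and 1782 and 1798 with PBS. All followed the same order. With MCF10A EVs Ncapg had the largest change of the group, 1.27-fold. Smc4 rose less with MCF10A EVs (1.10-fold, limma adjusted p = 0.00278) than with MDA-MB-231 EVs (1.26-fold), and the EV groups differed by test (adjusted p = 0.000555). Ncaph, the kleisin of condensin I, rose 1.30-fold with MDA-MB-231 EVs and 1.22-fold with MCF10A EVs. Without PBS replicate 1, the adjusted p of Smc4 with MCF10A EVs was 0.0575.

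The 3 cytokinesis genes rose with both EVs, against 17.9% of all genes tested with MDA-MB-231 EVs and 17.1% with MCF10A EVs. Median log2 fold changes of the 3 were 0.41 and 0.29. Ect2 (chromosome 3), the exchange factor that activates RhoA at the cleavage furrow, had 2758 and 2650.0 normalised reads with MDA-MB-231 EVs, 2335 and 2364 with MCF10A EVs, and 1928 and 1834 with PBS. Racgap1 (chromosome 15), the centralspindlin partner of KIF23 that binds ECT2, had 4740.1 and 4729.6 normalised reads with MDA-MB-231 EVs, 4319.9 and 4405 with MCF10A EVs, and 3499.5 and 3616 with PBS. Anln, which encodes the furrow scaffold anillin, rose 1.16-fold with MDA-MB-231 EVs and 1.09-fold with MCF10A EVs, the smallest change of the 3. In each gene the groups stood apart, with MDA-MB-231 EVs highest. Without PBS replicate 1, the adjusted p of Anln with MCF10A EVs was 0.0776.

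Without a variance trend in limma, the calls against PBS of Cdc25b, Bub3, Pttg1 and Kif4 were lost with MDA-MB-231 EVs. With MCF10A EVs those of Cdk1, Cdc25c, Bub3, Cenpe, Nuf2, Spc25, Kif4, Kif15, Kif18b, Kif22, Kif23, Smc4 and Anln were lost, at adjusted p from 0.0521 for Cenpe to 0.128 for Anln.

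Setting MDA-MB-231 EVs against MCF10A EVs asks whether the vesicle source matters for these genes, and it does not use the PBS libraries except through the shared spread. With MDA-MB-231 EVs 30 of the 48 genes were called higher than with MCF10A EVs and 0 lower, with a median log2 fold change of 0.16, or 1.11-fold. Of all genes tested 6.84% were called higher and 10.1% lower, with a median log2 fold change of -0.00063. In 41 of the 48 genes both MDA-MB-231 EV libraries lay above both MCF10A EV libraries, against 27.2% of all genes, and in 3 below, against 28.9%. By role, 5 of 9 entry genes, 5 of 8 checkpoint and anaphase genes, 5 of 9 kinetochore and passenger genes, 7 of 12 kinesin and spindle genes, 6 of 7 condensin and chromosome genes and 2 of 3 cytokinesis genes were called higher. Of the 48 genes, 28 were called higher in all 3 comparisons, which share libraries. The share of all genes tested called higher in all 3 was not worked out and is at most 6.84%. Bub1b differed most, with a log2 fold change of 0.37 (95% interval 0.30 to 0.44, limma adjusted p = 2.57e-06). Kif15, Ccnb2, Cenpf, Ncapd2, Nusap1 and Kif11 followed, with log2 fold changes of 0.28, 0.27, 0.26, 0.24, 0.24 and 0.24. The 18 genes not called had log2 fold changes from -0.13 in Spc25 to 0.18 in Cdc25c, whose 95% interval was 0.022 to 0.33. For Aurka the interval of the difference was -0.086 to 0.083 and for Ccnb1 -0.096 to 0.054, which bounds a difference between the EV sources in these 2 genes.

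The number of calls between the EV groups differed with the fit, the scaling and the libraries used. Without a variance trend in limma it was 1, Bub1b (adjusted p = 0.0344), and without MCF10A EV replicate 1 it was 13. DESeq2 called 24, edgeR with TMM 35 and edgeR with library totals 41, with 0 called lower in each. Ccnb2, Bub1b, Cenpf, Nuf2, Kif11, Nusap1, Smc4, Ncapd2, Mki67 and Ect2 were called in each of the 15 alternatives run other than limma without a trend.

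**Figure D3:**
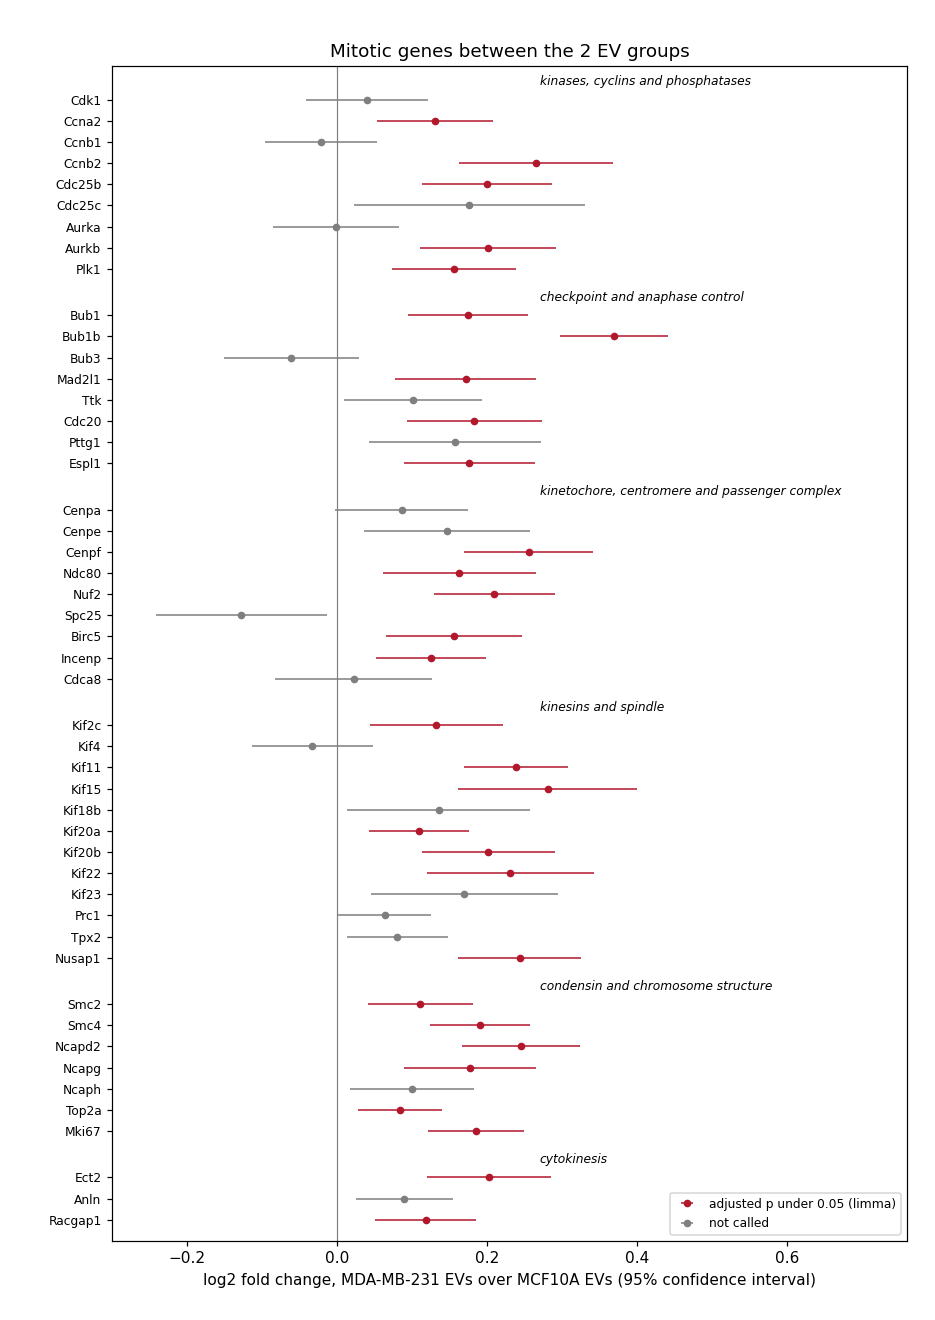
Log2 fold change of MDA-MB-231 EVs over MCF10A EVs (horizontal axis) with its 95% confidence interval from limma, 2 libraries per group, for the 48 mitotic genes by role, red where the adjusted p was under 0.05 and grey otherwise. The 30 called genes all lie right of 0, led by Bub1b at 0.37, and Spc25 at -0.13 lies farthest left.

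Levels per kilobase of transcript, using 1 principal GENCODE M21 transcript per gene, let the genes be compared with each other. Top2a had 3115 and 3097 normalised reads per kilobase with MDA-MB-231 EVs, 2899.6 and 2963 with MCF10A EVs and 2429 and 2398 with PBS. Anln had 2878 and 2736 with MDA-MB-231 EVs, 2621 and 2653 with MCF10A EVs and 2373 and 2448 with PBS. The PBS libraries of these leading genes overlapped, and Top2a was above Anln in both EV groups. For 3 subunits of the NDC80 complex, without Spc24, the level per kilobase with MDA-MB-231 EVs was 1039 and 1028 for Nuf2, 716 and 767 for Spc25 and 658 and 650.3 for Ndc80. With PBS it was 809 and 799 for Nuf2, 704 and 677 for Spc25 and 473 and 446 for Ndc80, so the order of these 3 was the same. In condensin, Smc4 led with PBS at 1199 and 1246, Smc2 had 672 and 668, Ncaph 609.9 and 597, Ncapg 481 and 485 and Ncapd2 431 and 426 normalised reads per kilobase. No neighbours in that order overlapped between the PBS libraries. These levels depend on the transcript chosen, as for Mad2l1, whose transcript of 7557 bases gave it the lowest level of the 48.

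Other mitotic genes, counted together with a list of their regulators, 131 found of 134 listed, moved in the same direction in most cases. With MDA-MB-231 EVs 97 rose and 4 fell against PBS, with a median log2 fold change of 0.29, and with MCF10A EVs 82 rose and 2 fell, with a median of 0.21. Of all genes tested 17.9% were called higher and 16.9% lower with MDA-MB-231 EVs against PBS, and 17.1% and 14.6% with MCF10A EVs. Between the EV groups 6.84% of all genes tested were called higher and 10.1% lower. Of the 131, 24 were called higher with MDA-MB-231 EVs than with MCF10A EVs and 8 lower. That split was 59 and 2 with edgeR on library totals, 35 and 4 with quantile scaling, 13 and 2 with DESeq2 and 0 and 1 without a variance trend. With MDA-MB-231 EVs, 20 of 26 other kinetochore and centromere genes rose, 8 of 10 other checkpoint genes, 25 of 28 other spindle and centrosome genes, 15 of 18 other entry and exit regulators and both condensin II genes. With MCF10A EVs the counts were 15 of 26, 9 of 10, 21 of 28, 12 of 18 and both. Hjurp, the chaperone that places CENPA at centromeres, rose 1.26-fold with MDA-MB-231 EVs and 1.15-fold with MCF10A EVs, and Casc5, the kinetochore scaffold also called KNL1, 1.41-fold and 1.22-fold. Ska2, of the SKA complex at kinetochores, rose 1.55-fold with MDA-MB-231 EVs and 1.50-fold with MCF10A EVs, and Cenpq, of the inner kinetochore, 1.35-fold and 1.32-fold. Trip13, the ATPase that takes MAD2 off its partners, rose 1.54-fold with MDA-MB-231 EVs and 1.44-fold with MCF10A EVs. Mad1l1, the kinetochore receptor of MAD2, rose 1.32-fold and 1.31-fold, and Sgol2, a protector of centromeric cohesin, 1.41-fold and 1.24-fold in the same comparisons.

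Of the other spindle genes, Ckap2l and Aspm, which act at spindle poles and fibres, rose 1.38-fold and 1.39-fold with MDA-MB-231 EVs and 1.20-fold and 1.20-fold with MCF10A EVs. Hmmr and Dlgap5, both spindle assembly factors, rose 1.41-fold and 1.36-fold with MDA-MB-231 EVs and 1.29-fold and 1.28-fold with MCF10A EVs. Kif3a, a motor best known from cilia, fell in both comparisons, with log2 fold changes of -0.18 with MDA-MB-231 EVs and -0.21 with MCF10A EVs (limma adjusted p = 0.00414 and 0.00148). Without a variance trend both calls of Kif3a were lost (adjusted p = 0.0653 with MDA-MB-231 EVs and 0.0559 with MCF10A EVs), and without MDA-MB-231 EV replicate 1 the adjusted p with MDA-MB-231 EVs was 0.0561. Ccnf, the cyclin F of a ubiquitin ligase, rose 1.50-fold with MDA-MB-231 EVs and 1.37-fold with MCF10A EVs, and Gtse1, a microtubule-tip protein of G2, 1.49-fold and 1.35-fold. Ensa, which encodes an inhibitor of the phosphatase PP2A-B55 during mitosis, fell with MDA-MB-231 EVs (log2 fold change -0.19, limma adjusted p = 0.000864) and had -0.050 with MCF10A EVs (adjusted p = 0.35).

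The lists of the anaphase-promoting complex and of cohesin had lower median log2 fold changes against PBS than the full list of 131 genes. The medians of that full list were 0.29 with MDA-MB-231 EVs and 0.21 with MCF10A EVs. The reason for the lower medians was not tested. The shares of all genes tested called higher and lower were 17.9% and 16.9% with MDA-MB-231 EVs against PBS. With MCF10A EVs they were 17.1% and 14.6%. Of 16 genes of the anaphase-promoting complex and its E2 enzymes, 7 rose and 1 fell with MDA-MB-231 EVs and 5 rose and 0 fell with MCF10A EVs, with median log2 fold changes of 0.095 and 0.066. Fbxo5, which encodes the complex's inhibitor EMI1, rose 1.62-fold with MDA-MB-231 EVs and 1.45-fold with MCF10A EVs, and Anapc1, its largest subunit, 1.21-fold and 1.18-fold. Cdc16, another subunit, fell with MDA-MB-231 EVs (log2 fold change -0.14, limma adjusted p = 0.0073, and -0.072 and 0.124 in edgeR with library totals), and its call was also lost without PBS replicate 2 (adjusted p = 0.0785) and without a variance trend (adjusted p = 0.0679). Of 13 cohesin genes 9 rose with MDA-MB-231 EVs and 6 with MCF10A EVs, and 0 fell, with medians of 0.22 and 0.10. Smc3, a core subunit, rose 1.25-fold with MDA-MB-231 EVs and 1.14-fold with MCF10A EVs. The cohesin regulators Pds5b and Pds5a rose 1.26-fold and 1.16-fold with MDA-MB-231 EVs and 1.14-fold and 1.18-fold with MCF10A EVs. The condensin II subunits Ncapg2 and Ncapd3 rose 1.36-fold and 1.21-fold with MDA-MB-231 EVs and 1.25-fold and 1.19-fold with MCF10A EVs.

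Of 18 FOXM1, B-MYB and DREAM regulators, a list that also holds Trp53 and Cdkn1a, 11 rose and 1 fell with MDA-MB-231 EVs. With MCF10A EVs 12 rose and 1 fell. Among all genes tested 17.9% were called higher and 16.9% lower with MDA-MB-231 EVs, and 17.1% and 14.6% with MCF10A EVs. Foxm1, the activator of G2 and M genes, had 3853 and 3852 normalised reads with MDA-MB-231 EVs, 3715 and 3655 with MCF10A EVs, and 2912 and 2995 with PBS. Mybl2, which encodes B-MYB, had 1074 and 1007 normalised reads with MDA-MB-231 EVs, 1029 and 1082 with MCF10A EVs, and 853 and 859 with PBS. Trp53, which encodes p53, had 3333 and 3169 normalised reads with MDA-MB-231 EVs, 3243 and 3132 with MCF10A EVs, and 2469 and 2445 with PBS. All 3 rose with both EVs, Foxm1 1.30-fold with MDA-MB-231 EVs and 1.25-fold with MCF10A EVs (limma adjusted p = 2.57e-07 and 3.31e-06), and none of the 3 was called between the EV groups. Cdkn1a, which encodes the CDK inhibitor p21, had 3211 and 3089 normalised reads with MDA-MB-231 EVs, 4115 and 4179 with MCF10A EVs, and 4431 and 4339 with PBS. The MDA-MB-231 EV libraries were the lowest: Cdkn1a fell 1.39-fold against PBS (log2 fold change -0.48, limma adjusted p = 3.20e-08), and had a log2 fold change of -0.081 with MCF10A EVs (adjusted p = 0.078). Against MCF10A EVs it fell by 0.40 on the log2 scale (adjusted p = 8.13e-07). Rbl2, which encodes the DREAM pocket protein p130, fell with MCF10A EVs (log2 fold change -0.23, limma adjusted p = 0.000642) and had 0.033 with MDA-MB-231 EVs (adjusted p = 0.593). Its relative Rbl1 went the other way. It had the largest log2 fold change of the 18 in both comparisons, 0.52 with MDA-MB-231 EVs and 0.38 with MCF10A EVs.

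DNA replication genes, which peak earlier in the cell cycle, were set beside them, those of the replication origins and the MCM helicase with its loaders and partners, and Pcna, Rfc3, Rfc4, Pold1, Pole and Prim1 of the clamp, its loader, the polymerases and the primase. They rose in 21 of 21 cases with both EVs, with median log2 fold changes of 0.51 with MDA-MB-231 EVs and 0.43 with MCF10A EVs. With MDA-MB-231 EVs against MCF10A EVs, 4 of the 21 were called higher and 0 lower, against 6.84% and 10.1% of all genes tested. The median log2 fold change of the 21 was 0.072. For the 48 mitotic genes that count was 30 of 48 and the median 0.16; the difference between the lists was not tested.

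**Figure D4:**
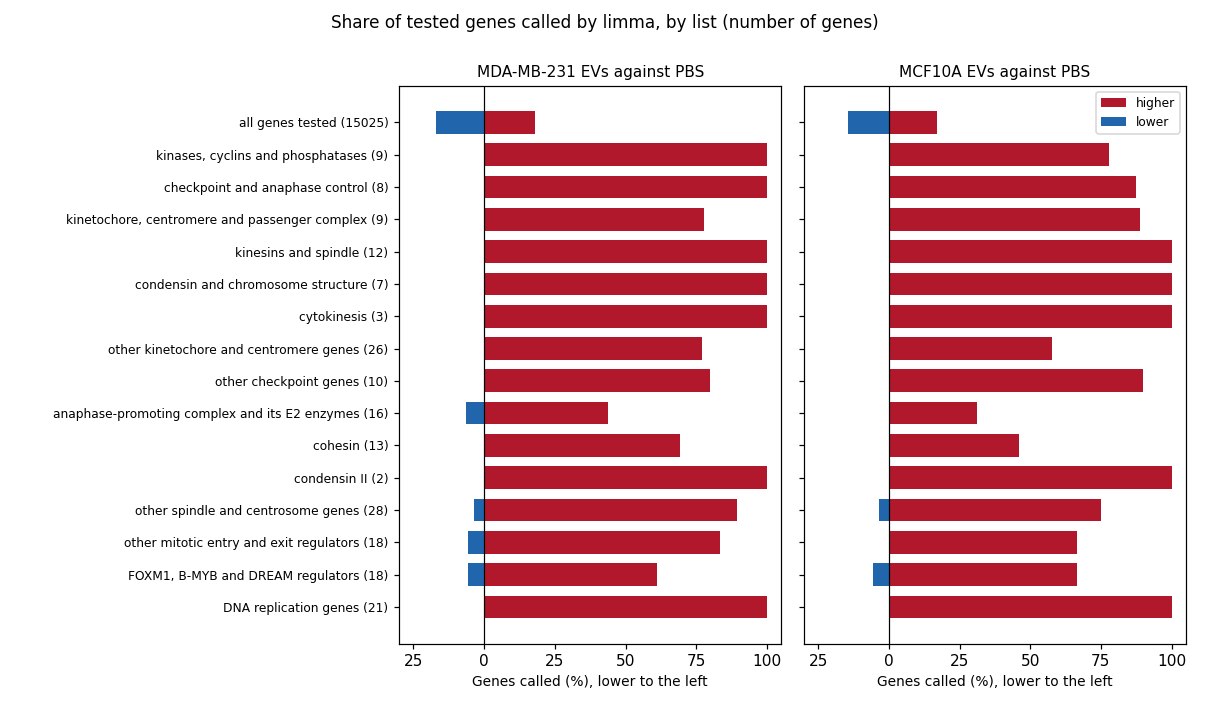
Percent of the tested genes of each list that limma called higher (red, right of 0) or lower (blue, left of 0), with MDA-MB-231 EVs against PBS in the left panel and MCF10A EVs against PBS in the right panel, the number of genes in brackets. Among all 15025 genes 17.9% and 17.1% were called higher in the 2 panels, and the DNA replication genes were all called higher in both.

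Reads of overlapping genes limit some values, since the counting strand is not given in the sources used here. In GENCODE M21, exons of 14 of the 48 genes overlap another gene, 12 of them on the opposite strand only. The overlap exceeds 500 bases in 6 genes: Ccna2 with Exosc9, Cdc25c with Gm3550, Kif4 with Pdzd11, Kif20a with Cdc23, Prc1 with Rccd1 and Ncapg with Lcorl. Reads of these pairs may be shared.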

How the data were processed

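RNA-seq was run on 6 NIH3T3 libraries, 2 per group, made with a stranded mRNA kit per the labels. Per the submitters' processing notes, TopHat2, edgeR and the human build hg19 were used, whereas the table lists mouse genes by mouse chromosome; the counter, annotation, mouse build and strand setting were not given in the sources used here. The authors deposited a signal per gene that is not whole: edgeR pseudo-counts, reads adjusted within the groups to a common library size and not divided by length. Inverting that adjustment gave whole reads for 122850 of 122850 values (100.0%) within a relative tolerance of 1e-06. These were used for depth, shares of reads and count tests only. The library sizes of the adjustment were not proportional to the read totals. PBS replicate 1 had 23279661 reads and a relative size of 0.921, and MCF10A EV replicate 1 had 23126453 reads and 0.931.

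The values fell between the units that the test plan named, so the tests for normalised values were taken. limma 3.58.1 in R 4.3.3 (lmFit, eBayes with trend) was run on log2(value + 1) for 15025 genes with a value of at least 1 in at least 2 libraries, with 1 model over all 6 libraries, a mean per group, 3 residual and 11.5 prior degrees of freedom and Benjamini-Hochberg adjustment over all genes tested. Fold changes are on the log2(value + 1) scale. Genes were called at an adjusted p under 0.05. edgeR 4.0.16 (quasi-likelihood, TMM or library totals) and DESeq2 1.42.0 were run on the recovered reads as alternatives, next to other pseudocounts (0.5 and 5), filters, a fit without trend, quantile scaling, a replicate block and leaving out each library. The test and the recovery were tested on simulated data.

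All 48 genes are given, with values per library for those listed in the plan, those not called against PBS and those called between the EV groups. From each other list up to 2 called genes with the smallest p per comparison with PBS, and genes called against their list's direction, are named. The genes and lists were chosen with earlier results of these data known. Mlf1ip, Sgol2a and Ncaph2 were not matched in the table. Promoter windows are RefSeq's on GRCm38.p6, and lengths and overlaps are from GENCODE M21.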

Additional observations from a re-analysis of the deposited data

How the results depend on the processing

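Against PBS, the number of the 48 mitotic genes called higher ran from 42 to 48 with MDA-MB-231 EVs and from 31 to 44 with MCF10A EVs over the 16 alternatives, and 0 were called lower in each; 42 and 31 genes were called in every alternative. Leaving out each library gave 44 to 46 and 41 to 44. The count between the EV groups was 30, and it was 1 without a variance trend and 13 to 29 when 1 library was left out. Among the other mitotic genes the calls with MCF10A EVs against PBS were 84, and 55 without a trend. Those between the EV groups were 32, and 1 without a trend, 61 with library totals, 15 with DESeq2 and 13 to 27 with 1 library left out. Over all genes tested, limma without a trend called 3346 with MDA-MB-231 EVs against PBS in place of 5231, 2231 with MCF10A EVs in place of 4764 and 378 between the EV groups in place of 2541, where DESeq2 called 1529 and leaving out a library 1425 to 2257. The cause of these shifts was not tested. With edgeR on library totals 68.0% of all calls with MDA-MB-231 EVs against PBS were higher, in place of 51.4%, and between the EV groups 63.2%, or 50.7% with quantile scaling, in place of 40.4%.

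Changes of sign were limited to log2 fold changes near 0 that were not called. With MCF10A EVs against PBS these were Ccnb2 (0.020 with library totals, -0.042 to 0.036 when 1 library was left out), Cdc25b (0.012 and -0.059 to 0.031 in the same settings), Pttg1 (-0.029 with quantile scaling, -0.0023 with TMM, -0.0055 with DESeq2, -0.043 to 0.055 with 1 library left out) and Cenpa (-0.0078 to 0.042 with 1 library left out). With MDA-MB-231 EVs against MCF10A EVs these were Ccnb1 (0.022 with library totals, -0.045 to 0.0025 with 1 library left out), Aurka (0.021 with quantile scaling, 0.0028 with TMM, 0.040 with library totals, 0.0025 with DESeq2, -0.027 to 0.023 with 1 library left out) and Cdca8 (-0.017 to 0.061 with 1 library left out). The others were Kif4 (0.010 with library totals) and Mybl2 (0.021 with library totals, -0.068 to 0.026 with 1 library left out).

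The replicate numbers are shared between groups, but nothing in the labels pairs the libraries, and the differences between replicates 1 and 2 were not correlated over genes (r of 0.011, -0.023 and 0.0084). With the replicate number as a block, 46, 44 and 33 of the 48 genes were called with MDA-MB-231 EVs against PBS, with MCF10A EVs against PBS and between the EV groups, and 100, 87 and 35 of the other mitotic genes. With 2 libraries per group, the smallest changes, such as those of Cenpa and Pttg1, were at the limit of what could be called.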

Other observations

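Some mitotic genes outside the 48 differed between the vesicle sources; those named here were chosen after their values were seen. Of 13 cohesin genes, 7 were called higher with MDA-MB-231 EVs than with MCF10A EVs and 0 lower, with a median log2 fold change of 0.10. In that comparison 6.84% of all genes tested were called higher and 10.1% lower. Esco2, the acetyltransferase that locks cohesin onto sister chromatids in S phase, had 678 and 684 normalised reads with MDA-MB-231 EVs, 575 and 559 with MCF10A EVs, and 486 and 523 with PBS. Its log2 fold change between the EV groups was 0.27 (limma adjusted p = 0.00933). Wee1, the kinase that holds CDK1 inactive, had 821 and 863 normalised reads with MDA-MB-231 EVs, 665 and 688 with MCF10A EVs, and 538 and 513 with PBS. It was highest with MDA-MB-231 EVs, with log2 fold changes of 0.31 over MCF10A EVs (adjusted p = 0.00192) and 0.68 over PBS (adjusted p = 3.94e-07). Zwint, a kinetochore partner of KNL1, ran the other way, with 4692 and 4595 normalised reads with MDA-MB-231 EVs, 5363 and 5199.7 with MCF10A EVs, and 4845 and 4786 with PBS. It was highest with MCF10A EVs, and its log2 fold change between the EV groups was -0.19 (adjusted p = 0.000635). Without a variance trend none of these 3 and none of the 13 cohesin genes was called between the EV groups. Of the listed genes outside the 48, only the regulator Cdkn1a was called there, lower with MDA-MB-231 EVs.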
